A study of Danio rerio with 23 samples.

Results

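Of the 31743 genes listed for each library, 102 met a rule for RNAs that drop steeply in the early zebrafish embryo. Their mean level was at least 5 TPM, a level scaled by transcript length and library size, in the heat-shocked siblings of both transgenic lines at 5.5 hours post fertilisation (hpf). At 7.5 hpf it was at most 0.25 of that level in the siblings of each line. A total of 9933 genes met the first condition and 104 met both, and ccna1 and mixl1 were left out because they belong to gene families that the rule excludes by name. The 12 sibling libraries thus chose the members, so the sibling levels at both times are given as a description without a test. The 11 libraries of transgenic embryos took no part in the choice, and the change with time was tested in them. Same-numbered sibling and transgenic libraries deviated together, except in the wnt8a line at 5.5 hpf. The choice can thus carry over in part to the transgenic libraries. All 102 members passed the filter on low counts.

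The egg of a zebrafish is loaded by the mother with RNA, and the early cleavages run on that supply while the embryonic genome is silent. As the embryo begins to transcribe its own genes, many maternal RNAs are shortened at their poly(A) tails and degraded, and some early embryonic genes are transcribed only in a brief burst. A fall in level in RNA-seq does not separate degradation from reduced synthesis. In RNA from whole embryos, fewer cells of a type and less RNA per cell cannot be told apart.

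The libraries came from whole embryos of crosses between wild-type fish and carriers of a heat-shock transgene. In hs:dkk1b/+ embryos the heat-shock promoter drives dkk1b, a secreted inhibitor of Wnt signalling, and in hs:wnt8a/+ embryos it drives wnt8a, a Wnt ligand. The labels give no number of embryos per library. The transgene is induced in the whole embryo and not in a chosen tissue. Transgenic embryos were recognised by fluorescence, and wild-type siblings went through the same heat shock, so there is no group without heat. The hs:dkk1b crosses were heated at 37 °C for 60 minutes and the hs:wnt8a crosses at 39 °C for 30 minutes, and both recovered at 29 °C. Line and heat regime therefore cannot be told apart. Sample titles carry the times 5.5 and 7.5 hpf, used here, whereas a separate label carries 5 and 7 hpf. There were 8 groups of 3 libraries, but only 2 for hs:wnt8a embryos at 5.5 hpf. The labels do not say that replicates came from separate clutches, so the error behind each p-value may in part be technical.

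Total counts ran from 13845788 to 20467185 over the 23 libraries. dkk1b stood at 4750 to 39100 TPM in hs:dkk1b embryos and at 36.4 to 271 TPM in all other libraries. wnt8a (the entry wnt8a_1) stood at 3310 to 5750 TPM in hs:wnt8a embryos. The wild-type siblings of that line held 760, 526 and 908 TPM at 5.5 hpf and 241, 3.64 and 22.9 TPM at 7.5 hpf, against 4.32 to 14.6 TPM in the dkk1b line. The hs:wnt8a comparisons below therefore take siblings with raised wnt8a RNA as their control, and its part in those results was not tested. Replicate 1 of both hs:dkk1b groups at 7.5 hpf held the heat-shock gene hsp70l at 1350 and 2720 TPM, against 40.8 to 88.1 TPM in the other libraries of that line and time.

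In the siblings the 102 members together made up 3078 to 6885 TPM of a library at 5.5 hpf and 627.4 to 1069 TPM at 7.5 hpf. In transgenic embryos the sums were 2757 to 7066 TPM and 606.1 to 1037 TPM. The median ratio of 7.5 to 5.5 hpf was 0.184 in siblings of hs:dkk1b and 0.149 in siblings of hs:wnt8a, values that the rule itself holds at or under 0.25.

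**Figure D1:**
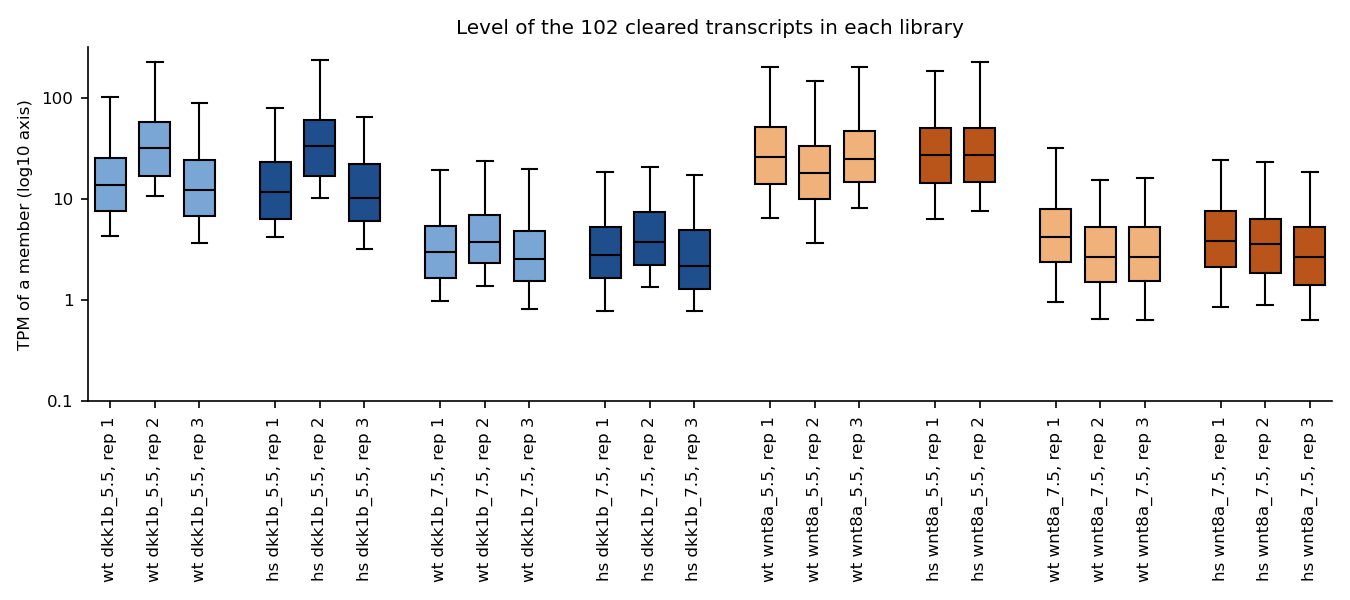
TPM of the 102 members (log10 axis) in each of the 23 libraries; boxes span the quartiles with the median as a line, whiskers run from the 5th to the 95th percentile, and colours mark line and genotype (light, wild-type siblings; dark, transgenic). Median levels lie between 10.4 and 34.2 TPM at 5.5 hpf and between 2.2 and 4.29 TPM at 7.5 hpf, with replicate 2 of both dkk1b groups at 5.5 hpf above the other libraries of its group.

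Mean levels of the same transcripts fell in transgenic embryos too. In hs:dkk1b embryos 83 of the 102 members (81.4%) had a ratio at or under 0.25, with a median of 0.17 and a range of 0.0285 to 0.414. In hs:wnt8a embryos 98 of 102 (96.1%) did, with a median of 0.133 and a range of 0.00334 to 0.31. Among genes with at least 5 TPM at 5.5 hpf the share at or under that ratio was 1.35% in hs:dkk1b and 3.18% in hs:wnt8a embryos. In edgeR's quasi-likelihood test with Benjamini-Hochberg adjustment over 19504 genes, all 102 members were called lower in hs:dkk1b and all 102 in hs:wnt8a embryos. The share of all tested genes called lower was 15% and 18.1%. Median log2 fold changes of the members were -2.64 and -3.07, where the medians of all genes were 0.04 and 0.06. DESeq2 called 100 of 102 in each line, where 3204 and 3728 of all tested genes were called lower. The exceptions in both were dock1, a guanine nucleotide exchange factor for Rac, and zgc:100951. In replicate 2 of hs dkk1b_5.5 they stood at 75.8 and 85.6 TPM, far above the other libraries of that group. DESeq2 can give no p-value for such a gene, which was not checked here. Their ratios in hs:wnt8a embryos were 0.1 and 0.199, so the exceptions are not read as a missing fall. The smallest fall in hs:dkk1b embryos was that of FO704777.1 at -1.35, and the largest adjusted p was 0.0426, for strbp, an RNA-binding protein of the spermatid in mammals. The smallest fall in hs:wnt8a embryos was that of mespab at -1.84.

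**Figure D2:**
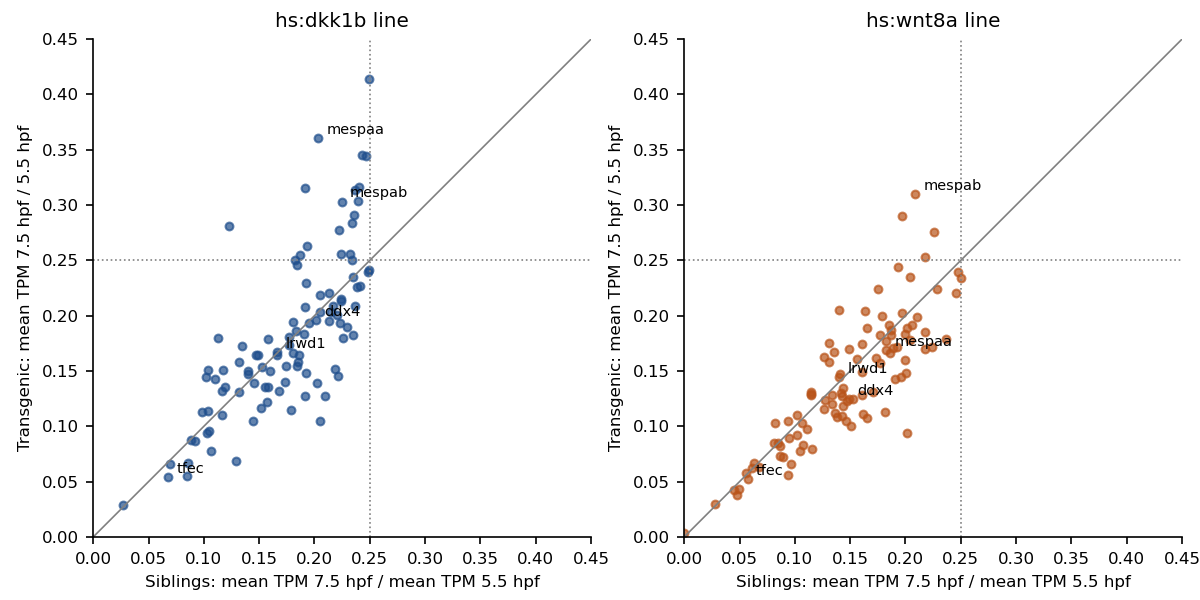
Ratio of mean TPM at 7.5 hpf to that at 5.5 hpf for each of the 102 members, in siblings (horizontal axis, values used to choose the members) and in transgenic embryos (vertical axis), for the hs:dkk1b line (left) and the hs:wnt8a line (right); dotted lines mark 0.25 and the diagonal marks equal ratios. In hs:dkk1b 19 members lie above the horizontal dotted line, mespaa at 0.361 among them, and in hs:wnt8a 4 do, mespab at 0.31 among them.

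The members were sorted by known role into groups. The 7 germline and oocyte genes held several RNAs classed as maternal stores. ddx4 (vasa), an RNA helicase of the germ plasm, stood at 89.7, 240.3 and 93.4 TPM in hs:dkk1b embryos at 5.5 hpf and at 25.9, 33.0 and 24.2 TPM at 7.5 hpf. Every library at 5.5 hpf lay above every library at 7.5 hpf, and replicate 2 was the highest at both times. The log2 fold change was -2.44 ± 0.40 (SE, edgeR adjusted p = 0.000277). In hs:wnt8a embryos ddx4 stood at 200.7 and 228.1 TPM at 5.5 hpf and at 33.5, 23.5 and 23.2 TPM at 7.5 hpf, a change of -3.16 ± 0.43 (SE, adjusted p = 4.57e-05 by edgeR).

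h1m, the maternal linker histone, fell by 2.70 on the log2 scale in hs:dkk1b and by 3.36 in hs:wnt8a embryos. tdrd9, a helicase of the piRNA pathway, fell by 2.98 and 2.90. cth1, a zinc-finger RNA-binding protein, stood at 5.45, 36.5 and 5.13 TPM in hs:dkk1b embryos at 5.5 hpf and at 2.1, 2.11 and 1.29 TPM at 7.5 hpf, so most of its mean at 5.5 hpf came from 1 library. Without that library, replicate 2 of hs dkk1b_5.5, the fall of cth1 was 1.6 on the log2 scale with an edgeR adjusted p of 0.0701, and it was no longer called. org, named for its expression in oogenesis, fell by 2.12 and 2.81. The embryonic poly(A)-binding protein genes pabpc1l and pabpn1l were at low levels and fell by 2.07 and 2.85 in hs:dkk1b and by 2.71 and 3.12 in hs:wnt8a embryos.

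The 4 genes of DNA replication and chromatin included the most abundant member. lrwd1, which in human cells binds the origin recognition complex, stood at 480.2, 859.2 and 454.3 TPM in hs:dkk1b siblings at 5.5 hpf and at 78.7, 122.8 and 96.9 TPM at 7.5 hpf. In transgenic hs:dkk1b embryos it stood at 444.7, 910.7 and 441.3 TPM and then at 77.2, 132.5 and 90.1 TPM. The sibling and transgenic values were close to each other replicate by replicate, and the times did not overlap. The transgenic fall was -2.68 ± 0.37 on the log2 scale (SE, edgeR adjusted p = 7.29e-05). The hs:wnt8a embryos went from 717.3 and 706.8 TPM to 142.5, 89.1 and 77.5 TPM, a change of -2.94 ± 0.40 (SE, edgeR adjusted p = 3.97e-05). mcm6l, a relative of the MCM6 subunit of the replicative helicase, fell by 2.35 and 2.46. nabp1b, a single-stranded DNA-binding protein, and morc3b, of a family of chromatin ATPases, fell by 2.79 and 2.96 in hs:dkk1b embryos and by 3.10 and 4.08 in hs:wnt8a embryos. Without replicate 2 of hs dkk1b_5.5 the changes of nabp1b and morc3b in hs:dkk1b were -1.86 and -0.89, with edgeR adjusted p of 0.062 and 0.353.

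Of the 8 transcription factors and cofactors, mespaa and mespab are known as genes that the embryo itself transcribes at its margin. mespab, a basic helix-loop-helix factor of mesoderm, stood at 104.6, 181.7 and 90.1 TPM in hs:dkk1b siblings at 5.5 hpf and at 30.7, 23.8 and 30.0 TPM at 7.5 hpf. Its ratio in transgenic embryos was 0.303 in hs:dkk1b and 0.31 in hs:wnt8a, above the sibling ratios of 0.225 and 0.209. The rule holds sibling ratios at or under 0.25, so a higher transgenic ratio is partly set by that choice. Transgenic ratios were higher than sibling ratios for 47 members and lower for 55 in hs:dkk1b, and for 36 and 66 in hs:wnt8a. The mespab paralogue mespaa had ratios of 0.361 in hs:dkk1b and 0.169 in hs:wnt8a embryos. By edgeR mespaa changed with time by -1.56 ± 0.51 (SE, adjusted p = 0.0258) in hs:dkk1b embryos and by -2.71 ± 0.52 (SE, adjusted p = 0.000604) in hs:wnt8a embryos. Leaving out replicate 2 of hs dkk1b_5.5 gave mespaa -0.52 and an adjusted p of 0.434.

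tfec, of the MITF family of transcription factors, had a higher sibling ratio of 0.068, the lowest of any member with a gene name. In hs:dkk1b embryos it stood at 13.5, 60.1 and 18.5 TPM at 5.5 hpf and at 1.78, 2.42 and 0.765 TPM at 7.5 hpf. It fell by 4.29 on the log2 scale in hs:dkk1b and by 4.41 in hs:wnt8a embryos (edgeR adjusted p = 0.000492 and 0.0002). skilb, a corepressor of SMAD proteins, had a mean of 51.6 ± 18.7 TPM (SD, n = 3) in hs:dkk1b embryos at 5.5 hpf and 7.39 ± 3.9 TPM (SD, n = 3) at 7.5 hpf. snai2, a repressor known from epithelial-mesenchymal transition, had 21.5 ± 15.3 TPM (SD, n = 3) and then 4.08 ± 0.35 TPM (SD, n = 3). lmo1, a LIM-only cofactor, and bbx, an HMG-box protein, had transgenic ratios of 0.11 and 0.151 in hs:dkk1b and of 0.0734 and 0.103 in hs:wnt8a embryos.

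Among the 8 genes of receptors, signalling and channels, cxcr4b was the most abundant. It encodes the chemokine receptor that guides migrating germ cells in zebrafish. In hs:dkk1b embryos it stood at 62.7, 169.8 and 65.7 TPM at 5.5 hpf and at 13.5, 13.1 and 17.5 TPM at 7.5 hpf. It went from 139.7 and 117.7 TPM to 24.8, 24.4 and 18.6 TPM in hs:wnt8a embryos. The times did not overlap in either line, and edgeR gave log2 fold changes of -2.85 ± 0.42 (SE, adjusted p = 0.000119) for hs:dkk1b and -2.66 ± 0.44 (SE, adjusted p = 0.000176) for hs:wnt8a. stap2a, an adaptor protein, kept less than cxcr4b, with transgenic ratios of 0.0869 and 0.0846. rgs3a, a regulator of G protein signalling, and tagapa, named as a GTPase-activating protein gene of T cell activation, had ratios of 0.227 and 0.152 in hs:dkk1b and of 0.224 and 0.192 in hs:wnt8a embryos.

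The 17 genes of cytoskeleton, migration and membrane traffic had median transgenic ratios of 0.18 in hs:dkk1b and 0.125 in hs:wnt8a embryos. add3b, an adducin that links actin to spectrin, differed from most members in its replicates. It stood at 326.7, 408.1 and 350.0 TPM in hs:dkk1b embryos at 5.5 hpf, where replicate 2 was only slightly above the others, and at 52.5, 110.2 and 62.6 TPM at 7.5 hpf. pak1, a kinase downstream of Rac, and tnikb, a kinase of the Ste20 group, had ratios of 0.195 and 0.221 in hs:dkk1b embryos and of 0.166 and 0.112 in hs:wnt8a embryos. The calcium-dependent membrane-binding protein anxa5b had 0.15 and 0.115, and the protease capn1a 0.0877 and 0.085. The group also held the Rac GTPase rac2 and the Rac activator dock1.

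The 17 metabolic enzymes had median transgenic ratios of 0.184 and 0.148. acsf2, an acyl-CoA synthetase of mitochondria, had 0.0962 in hs:dkk1b and 0.0378 in hs:wnt8a embryos. aldh18a1, an enzyme of proline synthesis, had 0.164 and 0.128, and gyg1a, which primes glycogen, had 0.184 and 0.127. ARSB, a lysosomal sulfatase, had 0.345 in hs:dkk1b and 0.185 in hs:wnt8a embryos. The difference of its fall between the lines was not called by edgeR. Catalase (cat) belonged to this group as well.

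The remaining 10 named members included fam169ab, with transgenic ratios of 0.0658 and 0.043, and nnr, with 0.0547 and 0.0833. sid1 was listed at 0 TPM in all 3 hs:wnt8a sibling libraries at 7.5 hpf. sid1 in hs:wnt8a embryos stood at 16.6 and 29.4 TPM at 5.5 hpf and at 0, 0 and 0.23 TPM at 7.5 hpf, so its fitted log2 change of -7.93 depends on the prior count and is no bound. In the siblings sid1 was uneven, at 20.9, 0.248 and 16.8 TPM at 5.5 hpf.

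A further 31 members carried clone or contig names with no role in the files. That was 30.4% of the members, where 18.4% of the genes at 5 TPM or more in both sibling groups at 5.5 hpf had such names. si:dkeyp-114g9.1, which had the lowest value of the higher sibling ratio, at 0.0281, stood at 87.7, 391.4 and 92.2 TPM in hs:dkk1b embryos at 5.5 hpf and at 5.99, 7.58 and 2.72 TPM at 7.5 hpf. In hs:wnt8a embryos it went from 275.2 and 247.0 TPM to 12.7, 8.16 and 2.66 TPM. By edgeR the change was -5.22 ± 0.80 (SE, adjusted p = 0.000161) in the former and -5.20 ± 0.81 (SE, adjusted p = 0.000117) in the latter. zgc:56699, the most abundant under such a name, fell by 2.15 and 2.22. A RefSeq table held 73 of the 102 members, all of them protein coding. Feature lengths implied by the deposited counts and RPKM had a median of 2408 bases over the members with enough counts. The median was 2658 bases over 9909 genes at 5 TPM or more.

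The members nearest to the rule's limit were scarb2c, org and abtb2a, with higher sibling ratios of 0.2467, 0.249 and 0.2499. PITPNC1, RAP1GDS1 and wee2 lay just outside, at 0.2508, 0.251 and 0.2512. In hs:dkk1b embryos these 6 genes had ratios of 0.345, 0.241, 0.291, 0.229, 0.401 and 0.24, and those inside and outside overlapped.

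**Figure D3:**
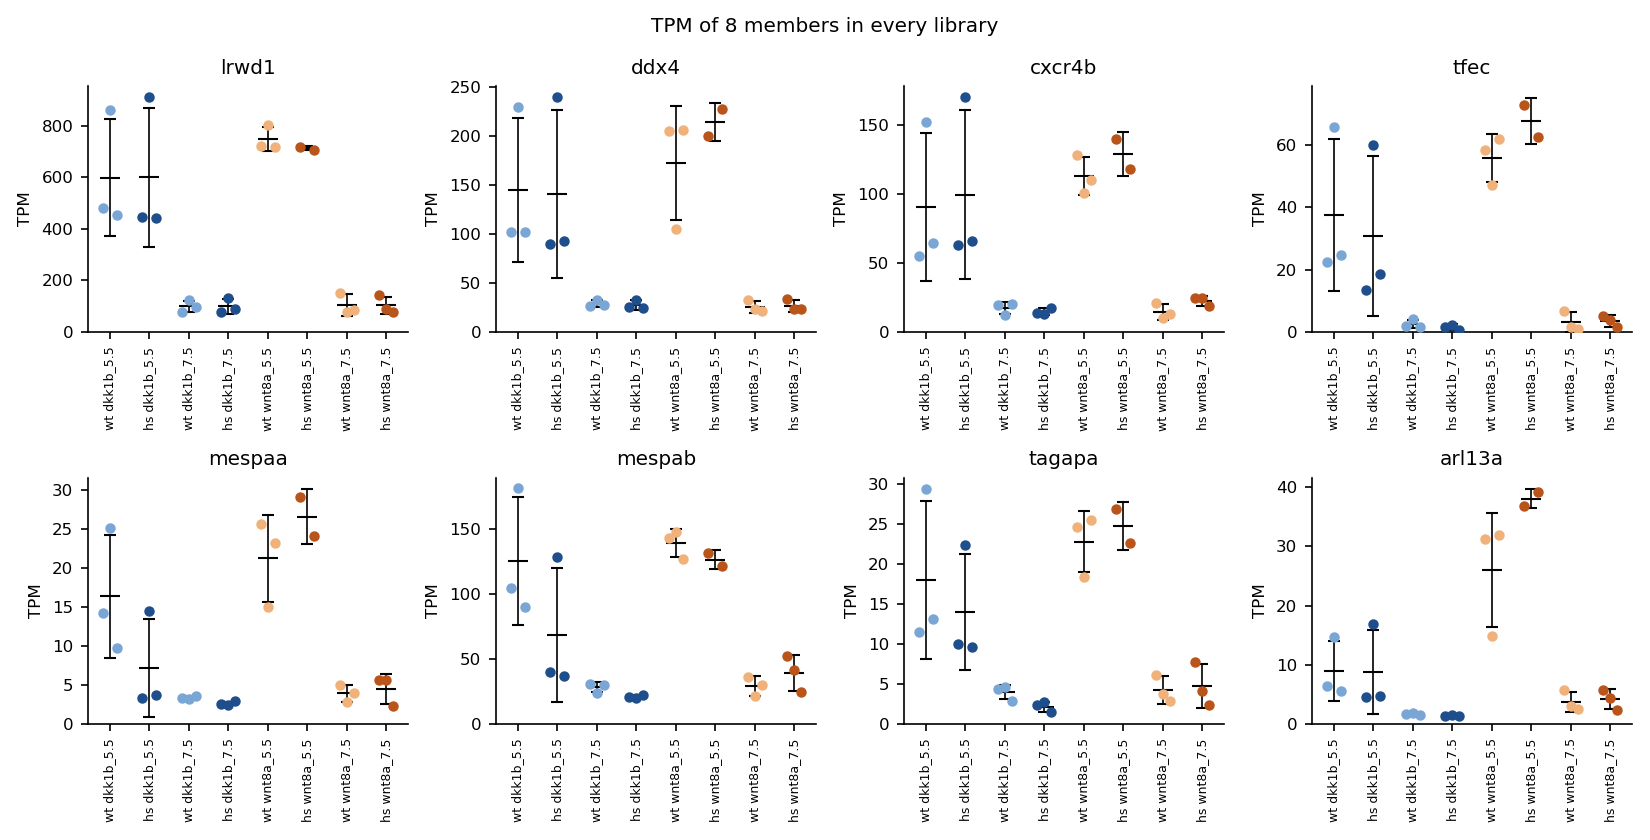
TPM of 8 members in every library by group (points), with the group mean (short line) and SD (bars; n = 3, except hs wnt8a_5.5 with n = 2). All 8 are lower at 7.5 hpf, and 1 dkk1b library of each genotype at 5.5 hpf lies above the others in every panel.

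The level of the members at 5.5 hpf differed between libraries of the dkk1b line. Replicate 2 was the highest library for all but 2 of the members in siblings and all but 1 in transgenic embryos, where it was the highest for 34.2% and 38.2% of genes at 5 TPM or more. Its median fold over the mean of the other libraries was 2.28 in siblings and 2.55 in transgenic embryos. Mean sibling levels chose the members, which favours genes that are high in a single sibling library at 5.5 hpf. Transgenic replicate 2 deviated with sibling replicate 2 (correlation 0.707). The counts in both genotypes are therefore partly set by that choice. Median member levels were 13.8, 32.5 and 12.5 TPM in the siblings and 11.9, 34.2 and 10.4 TPM in transgenic embryos. The wnt8a line stood at 26.6, 18.3 and 25.3 TPM in siblings and at 27.7 and 27.4 TPM in transgenic embryos. At 7.5 hpf replicate 2 of the dkk1b line was again the highest for 71 members in siblings and 76 in transgenic embryos. It was the highest for 24.5% and 43.5% of genes at 5 TPM or more. Replicate 1 of the wnt8a line was the highest at that time for 76 and 63 members, and for 30.4% and 35.7% of such genes.

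Genes of the opposite course were low in the same libraries. A set of 184 genes was chosen in siblings as at least 5 TPM at 7.5 hpf and at most 0.25 of that level at 5.5 hpf in both lines. In transgenic hs:dkk1b embryos, which did not choose them, replicate 2 at 5.5 hpf was the lowest library for 151 of the 184. Medians were 2.48, 0.955 and 2.73 TPM over the replicates. Sibling replicate 2, whose values helped to choose these genes, was the lowest for 161. The transgenic library deviated with it, so its count is partly set by the choice. At 7.5 hpf replicate 2 of hs:dkk1b embryos was the lowest for 134 and replicate 1 of hs:wnt8a embryos for 125. In the libraries named here, cleared transcripts were thus high and rising transcripts low. The counts were more even in hs:wnt8a siblings at 5.5 hpf, whose replicates were the lowest for 52, 55 and 77 of the 184. Their median member levels were 26.6, 18.3 and 25.3 TPM. The labels give all libraries of a group the same time, and the part of developmental stage was not tested.

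Leaving out replicate 2 of both dkk1b groups at 5.5 hpf moved the size of the fall in that line. The median ratio became 0.261 in siblings and 0.274 in transgenic embryos, and 43 of 102 members were at or under 0.25 in hs:dkk1b embryos. Among genes with at least 5 TPM at 5.5 hpf in those embryos the share was 0.57%. The highest member ratio in hs:dkk1b embryos was 0.919. The rule itself would then take 47 genes, all of them members. In edgeR 87 of the 102 members were still called lower, with a median log2 fold change of -1.94, and mespaa, morc3b, strbp and dock1 were among the 15 not called. Of all tested genes 10.2% were called lower in that fit. Without replicate 1 of both dkk1b groups at 7.5 hpf, where hsp70l was high, 89 were called lower, with 11% of all tested genes. The ratios of the hs:wnt8a line do not use these libraries.

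Whether the fall differed between the lines was tested in the transgenic libraries. The fall was larger in hs:wnt8a for 81 of 102 members, with a median difference of -0.40 (log2), but no member passed the edgeR test. Of all tested genes 0.692% did, and for 9104 of 19504 the difference had that direction. At an unadjusted p under 0.05 there were 5 members (scarb2c, TST, acaa1, sid1 and FO704777.1), all with a larger fall in hs:wnt8a. Of the 19504 tested genes 3403 were at that level in edgeR, 1378 of them in that direction. The share among the members was thus not above that of all genes. DESeq2 called 0 members, with 6 at that level, where 3446 of all tested genes were. Without pair 2 of dkk1b_5.5 the median difference was -1.08 and 18 members were called, all with a larger fall in hs:wnt8a, ddx4, acsf2, aldh18a1, mespaa and tnikb among them, where 3.65% of all tested genes were called in that direction. Leaving out pair 2, a choice made because the members were high in it, makes the fall in hs:dkk1b smaller by construction. The 18 calls are therefore not read as a result about the lines. The comparison of the lines thus rested on 1 pair of libraries, and line and heat regime cannot be told apart in that comparison.

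Transgene effects on the members were small against the spread between libraries. edgeR called 0 of 102 members in each of the 4 comparisons of transgenic embryos with their siblings. Of all tested genes it called 0.0513% for hs:dkk1b at 5.5 hpf, 0.154% for hs:dkk1b at 7.5 hpf, 0% for hs:wnt8a at 5.5 hpf and 0.0974% for hs:wnt8a at 7.5 hpf. Members at an unadjusted p under 0.05 numbered 2, 0, 0 and 0 in edgeR, where 277, 520, 649 and 309 of the 19504 tested genes were at that level. DESeq2 called 0 members in each, with 2, 1, 0 and 0 at that level, where 250, 525, 626 and 293 of all tested genes were. Because the siblings chose the members as high at 5.5 hpf and low at 7.5 hpf, these comparisons lean by construction towards lower values in transgenic embryos at 5.5 hpf and higher ones at 7.5 hpf. The most abundant member, lrwd1, had effects of 0.01 ± 0.35, -0.05 ± 0.35, -0.02 ± 0.39 and 0.03 ± 0.35 (log2, SE). With the replicate block, in the 3 comparisons whose libraries were paired, its effects were -0.01 ± 0.09 and -0.04 ± 0.09 for hs:dkk1b at 5.5 and 7.5 hpf and 0.07 ± 0.09 for hs:wnt8a at 7.5 hpf (SE).

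**Figure D4:**
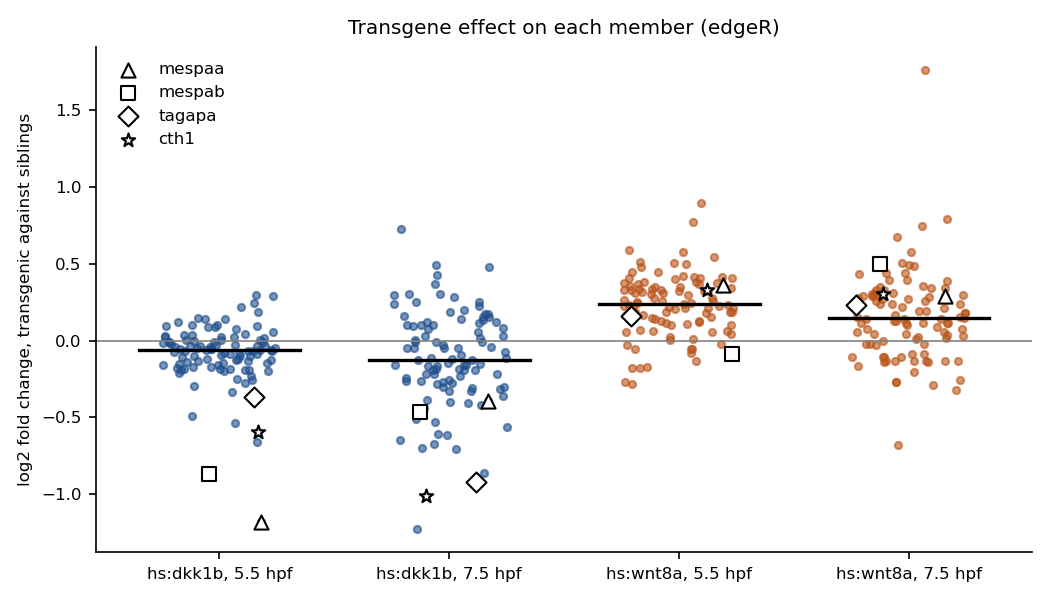
log2 fold change of transgenic embryos against siblings (edgeR) for each of the 102 members in 4 comparisons, spread sideways at random, with the median as a line and 4 members marked. Medians are -0.06 and -0.13 for hs:dkk1b and 0.24 and 0.15 for hs:wnt8a at 5.5 and 7.5 hpf; mespaa and mespab are the lowest points for hs:dkk1b at 5.5 hpf, and the highest point for hs:wnt8a at 7.5 hpf is sid1, whose siblings are all at 0.

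In hs:dkk1b embryos 74 of 102 members were lower than in siblings at 5.5 hpf (median log2 fold change -0.06) and 66 were lower at 7.5 hpf (median -0.13). Of the 19504 tested genes 9398 and 9483 were lower. Members moved together with single libraries, so counts of members by direction are not counts of independent observations. Lower in all 3 pairs of same-numbered libraries were 25 members at 5.5 hpf and 24 at 7.5 hpf, where 14.5% and 12.2% of all tested genes were. Higher in all 3 were 1 and 7 members, where 11.7% and 16.8% of all tested genes were. mespaa and mespab were the members with an unadjusted p under 0.05 at 5.5 hpf. mespab stood at 40.0, 128.4 and 36.8 TPM in hs:dkk1b embryos, against 104.6, 181.7 and 90.1 TPM in siblings. mespaa stood at 3.30, 14.5 and 3.74 TPM, against 14.2, 25.2 and 9.69 TPM. Each was lower than its own sibling library in all 3 pairs, although the groups overlapped because both replicate 2 libraries were high.

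The same-numbered libraries of these groups deviated together, so a blocked fit by replicate number bears on them. With the block mespab was called at 5.5 hpf, at -1.03 ± 0.20 (SE, edgeR adjusted p = 0.0468), against -0.87 ± 0.39 (SE) without it. mespaa was at -1.35 ± 0.27 (SE, adjusted p = 0.0672 by edgeR with the block) and was not called. Of all tested genes 0.246% were called with the block. The unblocked effects at 5.5 hpf moved with single libraries. Leaving out replicate 2 of hs dkk1b_5.5 gave mespab -1.72 and mespaa -2.23, with edgeR adjusted p of 0.0739 and 0.0884. Leaving out its sibling library gave -0.47 and -0.70, and leaving out both gave -1.32 and -1.74 (edgeR adjusted p = 0.17 and 0.215). At 7.5 hpf mespab had a blocked value of -0.46 ± 0.22 (SE, edgeR adjusted p = 0.627).

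At 7.5 hpf the groups did not overlap for 4 members that were lower in hs:dkk1b embryos, namely mespaa, mespab, cth1 and tagapa, and for 2 that were higher, FO704777.1 and blvrb, a biliverdin reductase. Among all tested genes 2.93% were lower and 4.65% higher without overlap. tagapa stood at 2.29, 2.65 and 1.42 TPM in hs:dkk1b embryos and at 4.38, 4.55 and 2.88 TPM in siblings. With the replicate block it was called, at -0.93 ± 0.15 (SE, edgeR adjusted p = 0.00676), and 0.749% of all tested genes were. cth1 had a blocked value of -1.0 ± 0.34 (SE, adjusted p = 0.363 by edgeR). The change of the hs:dkk1b effect between the times was called for 0 members, with 0 at an unadjusted p under 0.05 in both edgeR and DESeq2, and for 0% of all genes in edgeR.

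In hs:wnt8a embryos the members leaned the other way. At 5.5 hpf 89 of 102 were higher than in siblings, with a median of 0.24, where the median of all genes was -0.005. Every transgenic library lay above every sibling library for 25 members, among them the GTPase gene arl13a and the enzyme genes acsf2, acaa1 and TST, and below for lrwd1 and mecom. With 2 libraries against 3, 9.42% of all tested genes were higher without overlap and 14.0% lower. Sibling replicate 2 of this group had a lower member level than its other libraries, at a median of 18.3 TPM, and the transgenic medians of 27.7 and 27.4 TPM were close to those of sibling replicates 1 and 3, at 26.6 and 25.3 TPM.

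At 7.5 hpf 75 of 102 members were higher in hs:wnt8a embryos, with a median of 0.15, where 9911 of the 19504 tested genes were higher. fopnl, the channel gene hcn5, blvrb and zgc:171474 were higher without overlap, where 1.46% of all tested genes were. In all 3 pairs 16 members were higher and 9 lower, where 7.47% and 20.3% of all tested genes were. With the replicate block 0 members and 0.385% of all tested genes were called, with 7 members at an unadjusted p under 0.05, all higher. Of the 19504 tested genes 1033 were at that level in the blocked fit, 503 of them higher. Without replicate 1 of both groups the median was 0.36 and edgeR called 0 members, with 1 at an unadjusted p under 0.05, and 0.0619% of all tested genes. The change of the hs:wnt8a effect between times was called for 0 members and for 0.00513% of all genes by edgeR, with 0 members at an unadjusted p under 0.05, and for 0 members by DESeq2, again with 0 at that level.

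Genes chosen by the same limits on the siblings of the other line alone gave a second view that is free of the shared siblings. There were 208 such genes for hs:dkk1b and 156 for hs:wnt8a. edgeR called 0 of them in each of the 4 comparisons, with 2, 2, 1 and 0 at an unadjusted p under 0.05. Medians were -0.04 and -0.05 in hs:dkk1b and 0.21 and 0.12 in hs:wnt8a embryos at 5.5 and 7.5 hpf. Many of these genes are members, so the directions are not separate evidence.

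At 5.5 hpf members stood higher in the wnt8a line than in the dkk1b line. In siblings 83 of 102 were higher with a median of 0.32 (log2), and in transgenic embryos 92 were with a median of 0.66. Of the 19504 tested genes 9339 and 9255 were higher. These comparisons were added after the data had been seen. edgeR called 2 members higher in siblings, si:ch73-299h12.2 and arl13a, where 3.12% of all tested genes were called higher. In transgenic embryos it called 8 higher, and 7.13% of all genes were, so both counts are close to the background. arl13a, a small GTPase gene, stood at 6.45, 14.7 and 5.47 TPM in hs:dkk1b siblings and at 31.2, 14.9 and 32.0 TPM in hs:wnt8a siblings. In transgenic embryos it stood at 4.58, 16.9 and 4.76 TPM against 36.9 and 39.3 TPM. The difference was 1.66 ± 0.49 (SE, adjusted p = 0.0452) in siblings and 2.26 ± 0.53 (SE, adjusted p = 0.00784) in transgenic embryos by edgeR.

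mespaa was among the 8, at 2.03 ± 0.51 (SE, edgeR adjusted p = 0.0112) in transgenic embryos, and its sibling value was 0.48 ± 0.46 (SE, adjusted p = 0.563 by edgeR). This comparison uses the same hs:dkk1b libraries as the transgene effect on mespaa. The other called members were si:ch73-299h12.2, another gene with a clone name, the mitochondrial sulfurtransferase gene TST, the thiolase acaa1, ARSB and rgs3a, at 0.95 to 1.74. Without replicate 2 of both dkk1b groups at 5.5 hpf, 38 members were called higher in siblings and 64 in transgenic embryos, where 6.02% and 12.1% of all tested genes were. That pair was left out because the members were high in it, a choice made after seeing the data, so these shares are not read as a result about the lines. mecom, a zinc-finger transcription factor, went the other way, with 8.16 and 6.34 TPM in hs:wnt8a against 10.1, 13.5 and 10.6 TPM in hs:dkk1b embryos, but was not called. It was among 4 members that were lower without overlap, where 33.7% of all tested genes were. Higher without overlap were 26 members, where 16.9% of all tested genes were.

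Lists of genes with related roles were compared with the members. In a list of oocyte and maternal genes 53 were tested, of which 26 were called lower and 2 higher with time in hs:dkk1b embryos and 35 lower and 1 higher in hs:wnt8a embryos by edgeR, with medians of -0.93 and -1.18. It held 4 members, h1m, cth1, pabpc1l and org. In a list of 20 germ plasm genes 7 and 9 were lower and 0 higher, with medians of -0.65 and -0.88, and h1m and ddx4 were members. The germ plasm genes did not all fall. nanos3, a regulator that germ cells need, had 17.1 and 13.0 TPM in hs:dkk1b embryos at the 2 times (mean, log2 fold change -0.46, edgeR adjusted p = 0.384), and piwil1, a Piwi protein, had 7.97 and 1.36 TPM (-2.63, edgeR adjusted p = 0.0151). In a list of 73 early zygotic genes 37 and 33 were lower and 6 and 15 higher, and mespaa, mespab and cth1 were members. A list of 25 Nodal and endoderm genes had 14 and 16 lower and 2 and 3 higher.

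The lists of other tissues of the early embryo held no member. Of 19 tested genes of the yolk syncytial layer 7 were lower in each line and 5 and 4 higher, and their summed level over the libraries was 6246 to 9218 TPM at 5.5 hpf and 9333 to 11990 TPM at 7.5 hpf. Of 24 genes of the enveloping layer 9 and 10 were lower and 5 and 6 higher, with summed levels of 5237 to 7017 TPM and 6725 to 8172 TPM. In replicate 2 of hs dkk1b_5.5 the yolk syncytial layer sum was 6246 TPM and the enveloping layer sum 5590 TPM, against 8160 to 8542 TPM and 6758 to 7008 TPM in the other libraries of the group. The germ plasm genes that are not members summed to 273.5 TPM there, against 187.7 and 251.3 TPM. The part of these tissues in the member levels was not tested. The other lists went both ways, against 15% and 18.1% of all tested genes called lower. Of 38 genes of RNA decay and translation 13 and 12 were lower and 3 and 6 higher, in hs:dkk1b and hs:wnt8a embryos. Of 37 early signalling genes 13 were lower in each line and 7 and 9 higher, and of 14 pluripotency genes 7 and 5 were lower and 2 and 4 higher. Of 30 immediate early genes 4 and 7 were lower and 6 and 2 higher, with medians of 0.30 and -0.21. Of 14 heat-shock genes 0 and 1 were lower and 2 and 0 higher, with medians of 0.83 and -0.45.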

How the data were processed

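The authors deposited 1 table per library of whole embryos with 31743 genes, holding a read count, TPM and RPKM per gene, per the file headers. The TPM values, which scale counts by length and library, chose and describe the members, and the deposited counts entered the tests. The authors' RPKM values served for the implied feature lengths. Per the submitters' processing notes edgeR and GRCz11 were used, with no version given for edgeR. No aligner, counter or strand setting is named in those notes or in the labels, so overlapping genes and near-identical copies may share reads.

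Counts of all 8 groups entered 1 model in edgeR 4.0.16 under R 4.3.3. It used TMM factors and the 19504 genes that filterByExpr kept, the quasi-likelihood test and Benjamini-Hochberg adjustment at 0.05. The fit was run on simulated counts with independent libraries and a single spread for all genes. That check does not cover libraries that deviate together, as most same-numbered ones did here. SE is the absolute log2 fold change over the square root of F. Alternatives were DESeq2 1.42.0, RLE scaling, no filter, a replicate block, and leaving out libraries. Tables were made with Python 3.11.15 and pandas 2.3.3. The members, role groups and gene lists were chosen with earlier results of these data known. The text names up to 4 abundant members per role group or list, called members, the 8 lowest ratios and those next to the limit. Others, such as strbp, arl13a, nanos3 and piwil1, were picked after their values were seen.

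Deviations from group means of same-numbered sibling and transgenic libraries correlated at 0.476 to 0.707 for dkk1b_5.5, 0.465 to 0.606 for dkk1b_7.5 and 0.307 to 0.726 for wnt8a_7.5, over 0.1 in every pair. The labels do not say what a number shares.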

Additional observations from a re-analysis of the deposited data

How the results depend on the processing

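The number of members depended on the rule: 58 genes at a ratio of 0.2, 180 at 0.33, 161 at a minimum of 2 TPM, and 53 without both wt dkk1b_5.5 replicate 2 and wt wnt8a_7.5 replicate 1 (chosen after seeing the data), of which 46 were members. Leaving out 1 library at a time gave 47 to 128. Members at a ratio of 0.25 or less ranged from 43 to 94 in hs dkk1b and from 93 to 98 in hs wnt8a when 1 library was left out, and 43 was without replicate 2 of hs dkk1b_5.5.

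Leaving out 1 library gave 82 to 102 members called lower with time in hs dkk1b embryos and 97 to 102 in hs wnt8a embryos. Genes called with time in either direction were 3548 to 5789 (main 5869, 2916 lower) and 4727 to 7345 (main 7718, 3534 lower). For the difference between these changes 135 genes were called, 689 by DESeq2, 601 with the replicate block, 26 without pair 1 of dkk1b_7.5, 1644 without pair 2 of dkk1b_5.5, 528 without pair 1 of wnt8a_7.5, and 0 to 881 without 1 library. Members called were 0, 1 with the replicate block (acaa1), 18 without pair 2 of dkk1b_5.5, and 0 to 7 without 1 library. By a limit of 0.1 in every pair, replicate numbers did not pair transgenic libraries across times. Correlations were 0.061 to 0.249 in hs dkk1b and 0.009 and 0.014 in hs wnt8a. Nor did they pair siblings with transgenic embryos at wnt8a_5.5 (-0.068 and -0.087). In siblings across times they were 0.167 to 0.311 in wt dkk1b, over that limit, and -0.3 to 0.175 in wt wnt8a. With a block by replicate number across times 100 and 102 members were called lower with time, where 3343 and 3911 of all tested genes were.

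For hs dkk1b at 5.5 hpf 10 genes were called, 27 by DESeq2, 48 with the replicate block, 23 without pair 2, and 5 to 25 without 1 library; members called were 0, and 1 with the block. At 7.5 hpf 30 genes were called, 59 by DESeq2, 146 with the block, 10 without pair 1, and 15 to 23 without 1 library; members called were 0, and 1 with the block. For hs wnt8a at 5.5 hpf 0 genes were called (649 at an unadjusted p under 0.05 in edgeR), 5 by DESeq2 and 113 with the block, where 0 members were called and 36 were at an unadjusted p under 0.05. In that blocked fit 3318 of the 19504 tested genes were at that level. At 7.5 hpf 19 were called, 29 by DESeq2, 75 with the block, 12 without pair 1, and 11 to 17 without 1 library. The hs dkk1b effect between times gave 0 genes in edgeR (170 at an unadjusted p under 0.05), 1 by DESeq2, 3 with the block and 2 without pair 2 of dkk1b_5.5. The hs wnt8a effect between times gave 1 gene, 4 by DESeq2, 19 with the block, 2 without pair 1 of wnt8a_7.5, and 0 to 2 without 1 library. Members called were 0 in these last 4 comparisons under each alternative, and 0 in all transgene comparisons without any 1 library.

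The lines at 5.5 hpf differed at 1508 genes in siblings, 2823 without pair 2 of dkk1b_5.5, 353 to 2134 without 1 library, and at 2 members, 38 and 0 to 9. In transgenic embryos these were 3425, 5190, 892 to 4637 genes and 8, 64, 1 to 52 members. The cause of these shifts was not tested beyond the libraries named. Of the values of single genes 937 kept their direction and side of the threshold, 44 lost the call, 2 gained it (mespab and tagapa with the replicate block) and 0 reversed. A low library number, with 2 in hs wnt8a_5.5, limits all tests, and leaving out 1 there assumes that the other varies like the other groups.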
